A study of Caenorhabditis elegans with 12 samples.

Results

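The inducible cytosolic HSP70 genes of the nematode Caenorhabditis elegans described here are hsp-70 (WBGene00002026), F44E5.4 (WBGene00009691) and F44E5.5 (WBGene00009692). They were chosen by gene identifier and were 3 of the 46904 gene identifiers counted in each library. Their RNA was measured in whole animals at L4, the last larval stage, by total RNA sequencing of 4 groups with 3 libraries each. The groups were miR-85(n4117) animals and WT (N2 Bristol) animals kept 44 hrs at 20°C and then 3 hrs at 35°C (heat shock, HS), and animals of the same strains kept 47 hrs at 20°C. The miR-85(n4117) strain carries a deletion of the microRNA gene mir-85 that, by the study's account, also disrupts part of the overlapping gene F49E12.8, and no second mir-85 allele was sequenced. The study asked whether hsp-70, whose 3′UTR has predicted sites for miR-85, and other stress genes change when miR-85 is lost.

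HSP70 proteins are chaperones that bind unfolded stretches of other proteins and release them in a cycle driven by ATP, helped by J-domain proteins, which load clients and speed ATP hydrolysis, and by nucleotide exchange factors, which reset the cycle. Cells hold constitutive HSP70 proteins at all times and add inducible ones under stress, when the transcription factor HSF-1 trimerizes and binds heat shock elements in their promoters. The 3 genes are the inducible kind, and their RNA is often used as a gauge of the heat shock response in worms.

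By the annotation on genome build WBcel235, hsp-70 lies on chromosome I at 9320325 to 9322519, on the minus strand. It sits entirely within intron 7 of uggt-2, a gene of 23 exons on the opposite strand, so that its exons overlap none of that gene's. F44E5.4 lies on chromosome II at 11757107 to 11759311 on the minus strand and F44E5.5 at 11759662 to 11761861 on the plus strand. This pair is divergent, with 350 bases between the 2 transcription starts. Both have 2 exons around an intron of 109 bases and encode 645 codons, whereas hsp-70 has 3 exons, introns of 77 and 61 bases and 643 codons. The annotated 3′UTRs are 87 bases in hsp-70, 105 in F44E5.4 and 110 in F44E5.5. Reads were counted by strand, and the command in the file headers sets no option for reads that align to several places, which the counting tool then leaves out. Reads common to near-identical stretches of the copies would therefore be missing, so that levels of one gene set against another are less certain than one gene's changes between libraries.

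Total counts were between 23871531 and 38586076 per library. Ribosomal RNA genes took 65.5% of the counts in WT replicate 3 at 20°C, against 13.7 to 32.9% in the other 11 libraries, which left 9505142 counts on protein-coding genes there. WT replicates 2 and 3 at both temperatures came from another sequencing lane (lane 8) than the other 8 libraries (lane 3). Values adjusted for lane are given here only for strain differences of the 3 genes. Shares, ratios and the values of other genes, as given, were not adjusted for lane. The mir-85 gene had 0 counts in all 6 miR-85(n4117) libraries, and 9, 6 and 2 counts at 35°C and 5, 5 and 0 counts at 20°C in WT. F49E12.8 had 11, 4 and 3 counts at 35°C and 2, 0 and 2 counts at 20°C in miR-85(n4117), against 85 to 92 counts at 35°C and 78 to 220 counts at 20°C in WT. Markers of muscle, pharynx, intestine, neurons, sperm, oocytes and yolk, 15 genes in all, were counted in every library, and in whole animals fewer expressing cells and less RNA per cell cannot be told apart.

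After HS the 3 genes were among the most abundant messages of the animal, in both strains. Levels are given as normalized CPM, the count divided by the library's effective size in units of 1000000. For hsp-70 they were 4652, 4154 and 5499 CPM in miR-85(n4117) at 35°C and 5399, 4139 and 5938 CPM in WT at 35°C. At 20°C the same gene had 11.3, 57.1 and 55.7 CPM in miR-85(n4117) and 8.06, 3.56 and 2.46 CPM in WT. The lowest heat-shocked library was 72.8 times the highest 20°C library in miR-85(n4117) and 514 times in WT, so the temperatures were far apart in each strain. Within 20°C the miR-85(n4117) libraries all lay above those of WT, with replicate 1 of the mutant closest.

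The divergent pair followed the same order at lower levels. F44E5.4 had 748, 576 and 1084 CPM in miR-85(n4117) and 823, 496 and 827 CPM in WT at 35°C. At 20°C it had 1.69, 8.04 and 9.50 CPM in miR-85(n4117), against 1.15, 0.584 and 0 CPM in WT, from raw counts of 80, 269 and 351 against 35, 21 and 0. The 0 is from the library with the fewest protein-coding counts. F44E5.5 had 881, 654 and 1227 CPM in miR-85(n4117) and 943, 633 and 985 CPM in WT at 35°C. Its 20°C values were 2.46, 10.5 and 10.6 CPM in miR-85(n4117) and 1.70, 0.612 and 0.0795 CPM in WT, from 116, 352 and 390 and from 52, 22 and 1 raw counts. For both genes mutant replicate 1 again lay nearest to WT replicate 1, the highest WT library at 20°C, at 1.48 times it for F44E5.4 and 1.44 times for F44E5.5.

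**Figure D1:**
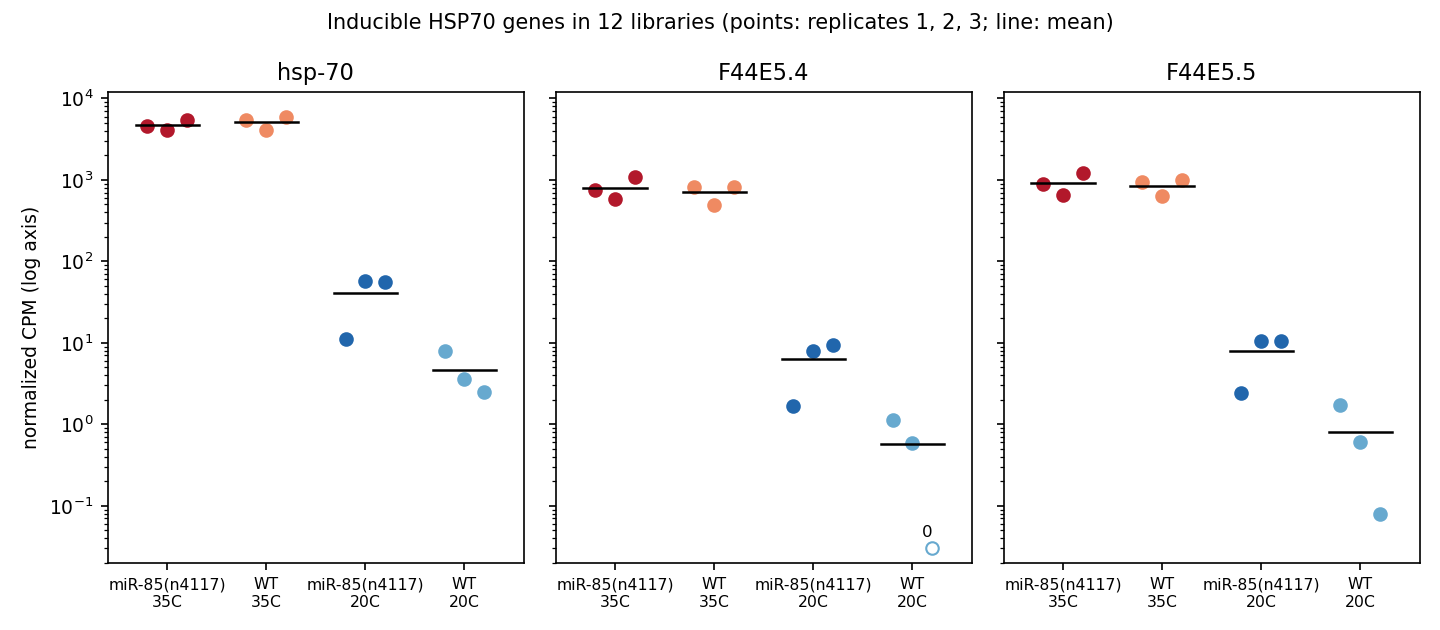
Normalized CPM of hsp-70, F44E5.4 and F44E5.5 (log axis) in the 12 libraries, as 3 points per group with a line at the mean; the open point stands for the 0 of F44E5.4 in WT replicate 3 at 20°C. The strains overlap at 35°C, while at 20°C the 3 miR-85(n4117) libraries lie above the 3 WT libraries for each gene.

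The spread within groups was small at 35°C and large at 20°C. Mean hsp-70 at 35°C was 4768 ± 680 CPM in miR-85(n4117) and 5159 ± 923 CPM in WT (SD, n = 3 each), and the highest of the 6 heat-shocked libraries was 1.43 times the lowest. Mean hsp-70 at 20°C was 41.3 ± 26.0 CPM in miR-85(n4117) and 4.69 ± 2.96 CPM in WT (SD, n = 3 each). F44E5.4 averaged 802 ± 258 CPM in the mutant and 715 ± 190 CPM in WT at 35°C, and at 20°C 6.41 ± 4.15 CPM in the mutant and 0.577 ± 0.573 CPM in WT. F44E5.5 averaged 921 ± 288 CPM in the mutant and 854 ± 192 CPM in WT at 35°C, and at 20°C 7.85 ± 4.67 CPM in the mutant and 0.798 ± 0.828 CPM in WT. Each gene's groups thus ranked as both heat-shocked groups, which did not differ beyond their spread, then miR-85(n4117) at 20°C, then WT at 20°C.

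Per kilobase of exon, hsp-70 had 2318 CPM in miR-85(n4117) and 2508 CPM in WT at 35°C, and stood at place 58 in the mutant and place 65 in WT among 19901 protein-coding genes. At 20°C it had 20.1 CPM per kilobase in miR-85(n4117), at place 3387, and 2.28 in WT, at place 10921. F44E5.5 stood at place 236 in the mutant and 270 in WT at 35°C, and F44E5.4 at 259 and 309. At 20°C F44E5.5 stood at place 9541 in the mutant and 14182 in WT, and F44E5.4 at 10106 and 14660. On this scale the constitutive cytosolic HSP70 gene hsp-1 had 815 CPM per kilobase in miR-85(n4117) and 898 in WT at 20°C, which was 40.6 and 393 times hsp-70. After HS hsp-1 had 1447 CPM per kilobase in miR-85(n4117) and 1857 in WT, and hsp-70 was then 1.6 and 1.35 times hsp-1.

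The response to HS was tested with edgeR's quasi-likelihood test on all 12 libraries. A gene was called where its log2 fold change was at least 1 in size, its Benjamini-Hochberg adjusted p under 0.05 and its mean normalized count over 10, the limits of the study. In miR-85(n4117) all 3 genes were called higher, where 4.43% of 14748 protein-coding genes were called higher and 3.31% lower. For hsp-70 the log2 fold change, 35°C over 20°C, was 6.85 (SE 0.697, 95% interval 5.31 to 8.39, adjusted p = 0.000111 by edgeR). F44E5.4 rose by 6.97 (SE 0.823, 125-fold) and F44E5.5 by 6.88 (SE 0.783, 118-fold) on the same scale, with edgeR adjusted p = 0.0003 and 0.000231. Among those genes hsp-70 was number 43 by fold in the mutant.

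In WT all 3 genes were called higher too, where 6.11% of genes were called higher and 5.42% lower. In WT hsp-70 rose by 10.08 (SE 0.799, 1083-fold, adjusted p = 2.06e-05 by edgeR), F44E5.4 by 10.09 (SE 0.958, 1089-fold, adjusted p = 7.17e-05) and F44E5.5 by 9.92 (SE 0.904, 970-fold, adjusted p = 5.23e-05). These were numbers 9, 8 and 10 by fold of 14748 genes. DESeq2 and edgeR with the replicate number as a block also called all 3 higher in both strains. In the mutant DESeq2 called 5.92% of genes higher and 4.38% lower and the block fit 3.85% and 2.92%. In WT the same tools called 7.42% and 6.64%, and 5.03% and 4.85%. The size of the WT folds moved with 1 library at 20°C, WT replicate 1. Without it the log2 fold changes were 10.72, 10.86 and 10.96. Between WT libraries of the same number hsp-70 was 670 times higher at 35°C in lane 3 (replicate 1) and 1162 and 2410 times higher in lane 8 (replicates 2 and 3). In miR-85(n4117), all in lane 3, it was 412, 72.8 and 98.8 times higher in replicates 1, 2 and 3, so that the folds of the mutant libraries differed widely and only that of replicate 1 came close to the lowest WT fold.

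**Figure D2:**
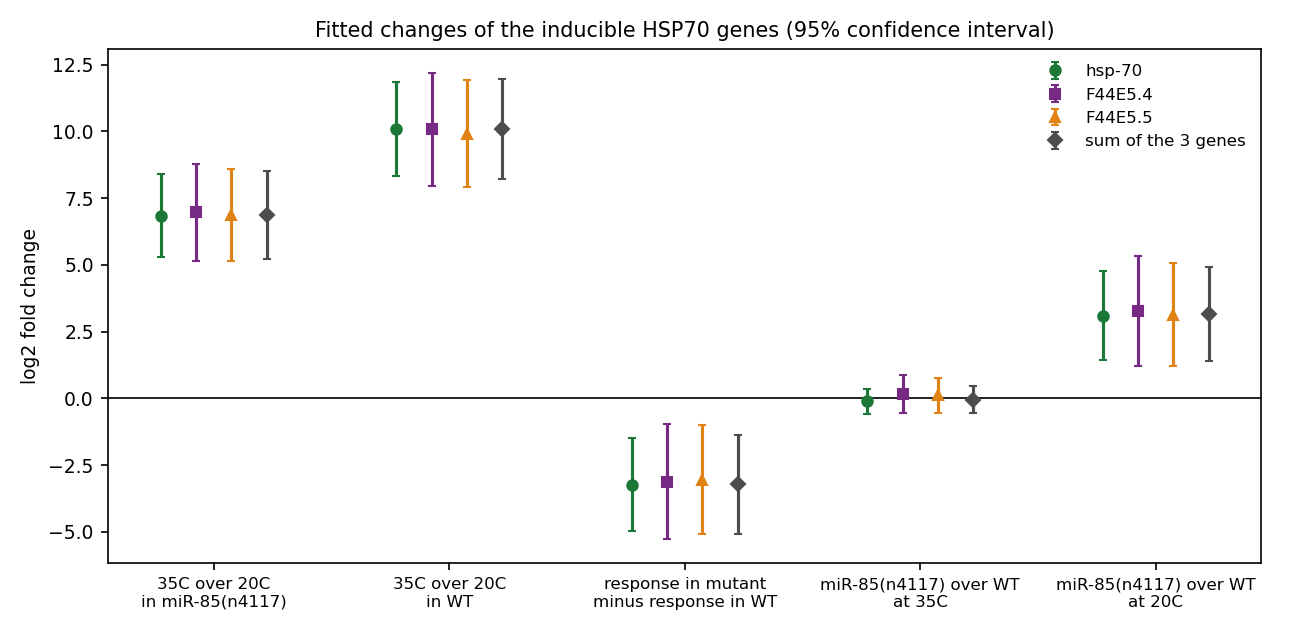
Log2 fold changes of the 3 genes and of their sum (points) with 95% confidence intervals from edgeR, for the HS response in miR-85(n4117), the HS response in WT, the difference between these responses, and miR-85(n4117) over WT at 35°C and at 20°C. The HS responses lie near 7 in the mutant and near 10 in WT, and the strain difference lies near 3 at 20°C and near 0 at 35°C, alike for the 3 genes.

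The responses differed by log2 -3.23 for hsp-70 (SE 0.790, 95% interval -4.98 to -1.48), -3.12 for F44E5.4 (SE 0.981) and -3.04 for F44E5.5 (SE 0.922), as the mutant response minus that of WT. None of the 3 was called in this interaction, where 0% of 14748 genes were called in either direction. Before adjustment the edgeR p-values were 0.00192, 0.00917 and 0.00738, so 3 of 3 were under 0.05, beside 2.15% of all genes, and after adjustment each was 1.00. DESeq2 called none of the 3 either, with an adjusted p = 0.0931 for hsp-70, where it called 0.00682% of genes higher and 0% lower. Without WT replicate 1 at 20°C the 3 differences were -3.87, -3.89 and -4.09. Since the 35°C levels of the strains overlapped, this difference is the strain difference at 20°C seen from the other side, not a further measurement.

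At 20°C hsp-70 was log2 3.10 higher in miR-85(n4117) than in WT (SE 0.703, 95% interval 1.44 to 4.77, 8.59-fold), F44E5.4 was 3.27 higher (SE 0.870, 1.21 to 5.33) and F44E5.5 was 3.14 higher (SE 0.809, 1.22 to 5.05). These were numbers 9, 6 and 8 by fold of 14418 genes tested in the 6 libraries at 20°C. Their edgeR adjusted p-values were 0.285, 0.336 and 0.324, so 0 of 3 were called, where 0.0139% of genes were called higher and 0.0416% lower. Before adjustment the edgeR p-values were 0.00319, 0.00725 and 0.00621, so 3 of 3 were under 0.05, beside 9.50% of all genes. The outcome depended on the tool for hsp-70. DESeq2, which the study used, gave a log2 fold change of 3.13 with an adjusted p = 6.05e-05 and so called hsp-70 higher, where it called 0.410% of genes higher and 0.528% lower, and it called neither F44E5.4 (3.45, adjusted p = 0.238) nor F44E5.5 (3.28, adjusted p = 0.122).

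The counts of the 3 genes were also added to 1 feature, from which reads shared by the copies would be missing too. This feature was log2 3.16 higher in miR-85(n4117) at 20°C (SE 0.736, adjusted p = 0.298 by edgeR, 0.0187 by DESeq2). The counts of the 3 genes were 0.00246, 0.0120 and 0.0122% of protein-coding counts in miR-85(n4117), against 0.00169, 0.000726 and 0.000337% in WT. An exact two-sided permutation test gave p = 0.1, the smallest that 3 against 3 libraries allow. With the lane as a covariate the strain difference at 20°C was smaller, 2.37 for hsp-70, 2.48 for F44E5.4 and 2.21 for F44E5.5 (adjusted p = 0.919, 0.988 and 0.967 by edgeR). WT has 1 library in lane 3, so that a within-lane comparison at 20°C rests on that library alone. Without it, WT replicate 1, the differences were 3.73, 4.01 and 4.15, and still not called by edgeR.

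The 20°C libraries of miR-85(n4117) were not alike. The summed level of the 3 genes was 15.4, 75.7 and 75.7 CPM in miR-85(n4117) replicates 1, 2 and 3, and 10.9, 4.76 and 2.54 CPM in WT. Replicate 1 of the mutant was 1.41 times WT replicate 1, which was sequenced in the same lane, while mutant replicates 2 and 3 were each 6.94 times it. The small heat shock protein genes of the hsp-16 list split the mutant libraries the same way, with summed levels of 3.28, 36.1 and 31.4 CPM in miR-85(n4117) and 2.62, 1.09 and 0.874 CPM in WT. These sums came from hsp-16.2 and hsp-16.41 alone, as hsp-16.1, hsp-16.11, hsp-16.48 and hsp-16.49 had no counts at 20°C. At 35°C in miR-85(n4117) the means of the latter genes were only 0.155 (hsp-16.1) to 2.54 CPM (hsp-16.49). Those of hsp-16.2 and hsp-16.41 were 1892 and 2234 CPM. Reads that align to several places were left out, and their part in the low counts was not tested. The summed level of the 5 oocyte and yolk markers (rme-2, puf-5, vit-2, vit-5 and vit-6) also split the mutant libraries, in the opposite direction. It was 914, 234 and 153 CPM in miR-85(n4117) and 765, 719 and 829 CPM in WT at 20°C. The split was mostly in the vit genes. The highest mutant library at 20°C was 25.5, 114 and 9.87 times the lowest for vit-2, vit-5 and vit-6, but 1.71 and 1.88 times for rme-2 and puf-5. None of these 5 was at 0 in any library. The 3 sperm markers were closer, at 110, 91.9 and 113 CPM in miR-85(n4117) and 125, 147 and 174 CPM in WT. The part that the stage or makeup of the animals has in the level of the HSP70 genes at 20°C was not tested.

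**Figure D3:**
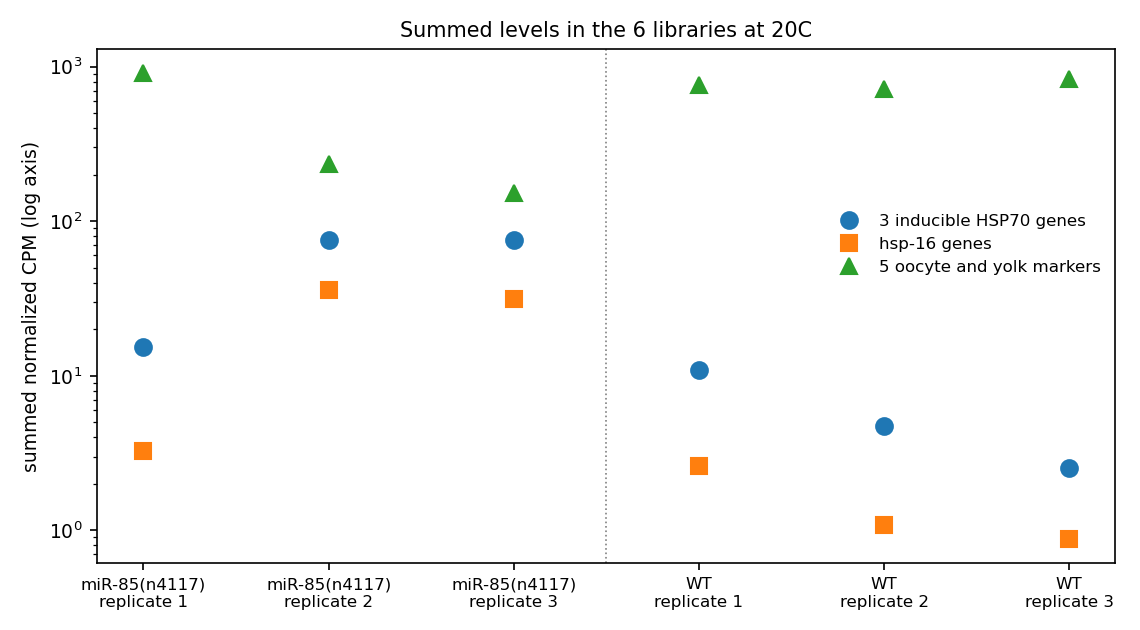
Summed normalized CPM (log axis) of the 3 inducible HSP70 genes, of the hsp-16 genes and of the 5 oocyte and yolk markers in the 6 libraries at 20°C, the 3 miR-85(n4117) libraries left of the 3 WT libraries. Mutant replicates 2 and 3 have the highest HSP70 and hsp-16 sums and the lowest marker sums, and mutant replicate 1 lies near WT replicate 1 on all 3 measures.

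At 35°C no strain difference in the 3 genes was larger than the spread between replicates. The log2 difference, miR-85(n4117) over WT, was -0.11 for hsp-70 (SE 0.192, 95% interval -0.57 to 0.34), 0.17 for F44E5.4 (SE 0.301, -0.55 to 0.88) and 0.11 for F44E5.5 (SE 0.282, -0.56 to 0.78). None was called by edgeR (adjusted p = 0.995 for each), where 0.00687% of 14564 genes were called higher and 0.0137% lower, none of the 3 was under 0.05 before adjustment, and DESeq2 called none, where it called 0.0205% of genes higher and 0.0546% lower. The upper ends of these intervals lie below the estimates of 3.10 to 3.27 at 20°C. The 3 genes together took 0.900, 0.781 and 1.09% of protein-coding counts in miR-85(n4117) and 1.01, 0.697 and 1.03% in WT (exact permutation p = 1.0, n = 3 each). The sign for F44E5.4 and F44E5.5 is not fixed by these data, as it turned to -0.04 and -0.03 with the lane as a covariate. In both strains replicate 2 was the lowest heat-shocked library for each of the 3 genes. It was also the highest for the summed level of the 5 oocyte and yolk markers described above, whose sums at 35°C were 658, 3699 and 192 CPM in miR-85(n4117) and 1748, 5705 and 2323 CPM in WT. Their part in the level of the 3 genes at 35°C was not tested.

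The 3 genes kept nearly fixed proportions over the whole range of induction. Of the summed counts of the 3, hsp-70 held 74.1, 77.1 and 70.4% in miR-85(n4117) and 75.4, 78.6 and 76.6% in WT at 35°C. At 20°C it held 73.1, 75.5 and 73.5% in miR-85(n4117), with exact (Clopper-Pearson) 95% intervals of 69.7 to 76.3, 73.7 to 77.1 and 71.8 to 75.1%, which cover counting error only. In WT at 20°C it held 73.9% (68.8 to 78.5%) of 333 counts in replicate 1 and 74.9% (67.7 to 81.2%) of 171 counts in replicate 2. WT replicate 3 stood apart at 96.9% (83.8 to 99.9%), from 31 of 32 counts.

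Over all 12 libraries the share of hsp-70 was 2.58 percentage points lower at 35°C than at 20°C (exact permutation test within strains, two-sided, p = 0.79). Without WT replicate 3 at 20°C it was 1.17 points higher at 35°C (exact permutation p = 0.375). The difference in share, miR-85(n4117) minus WT, was -5.41 points (exact permutation within temperatures, p = 0.11, or 0.0625 by exact sign flips within the 6 pairs of the same number and temperature). The numbers showed no pairing of the strains at 20°C in the check described below, so the sign flips rest partly on unpaired libraries. The difference in share leaned on WT replicate 3 at 20°C, without which it was -1.66 points (exact permutation p = 0.205). It passed 0.05 without WT replicate 1 at 20°C (-7.41, exact permutation p = 0.035) and without miR-85(n4117) replicate 2 at 35°C (-6.23, exact permutation p = 0.03). By temperature it was -2.97 points at 35°C (exact permutation p = 0.3) and -7.84 points at 20°C (exact permutation p = 0.4). At 35°C, with 130424 to 218010 summed counts per library, the share was lower in miR-85(n4117) than in WT in each of the 3 pairs of the same number, while the ranges of the strains overlapped. The WT library of lane 3 held 75.4% there and those of lane 8 held 78.6 and 76.6%. The mutant libraries, all in lane 3, held 70.4 to 77.1%, and the part of lane in the share was not tested. At 20°C the 2 WT libraries with over 100 counts held shares within the intervals of the mutant libraries.

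**Figure D4:**
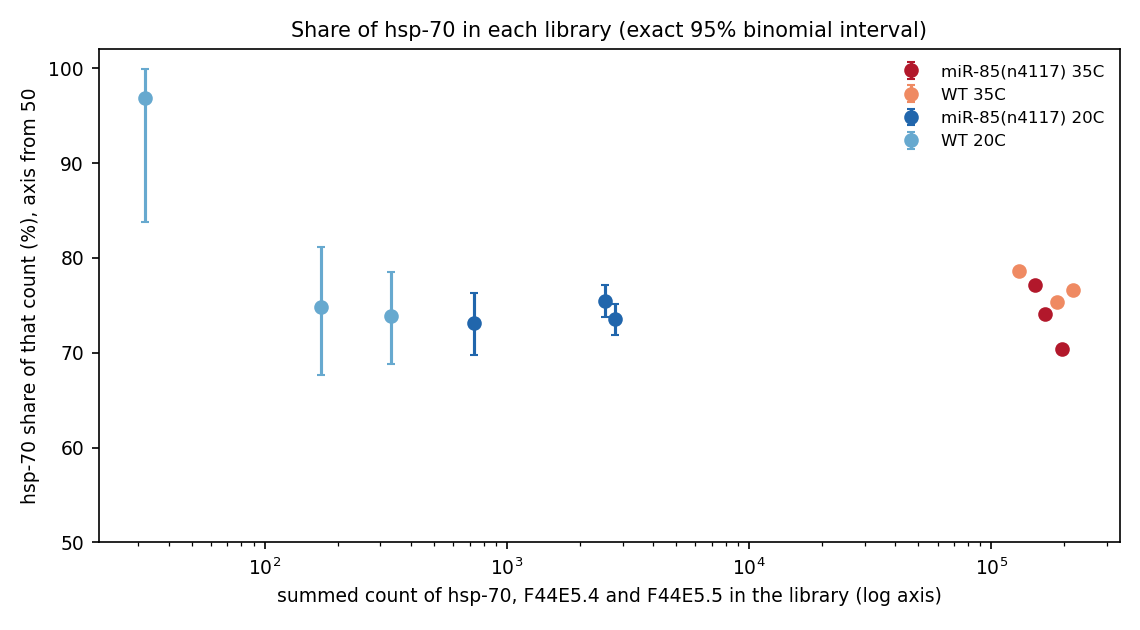
Share of hsp-70 in the summed counts of the 3 genes (percent, axis from 50) against that summed count (log axis), 1 point per library with its exact 95% binomial interval. All libraries lie between 70.4 and 78.6%, except WT replicate 3 at 20°C with 32 counts, at 96.9%.

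Within the divergent pair F44E5.4 had the lower count in every library. Its share of the pair's counts was 45.9, 46.8 and 46.9% in miR-85(n4117) and 46.6, 43.9 and 45.6% in WT at 35°C. At 20°C it was 40.8, 43.3 and 47.4% in miR-85(n4117) and 40.2, 48.8 and 0% in WT, the last from 1 count. The log2 ratio of F44E5.4 to F44E5.5, with 0.5 added to each count, was 0.31 higher at 35°C than at 20°C (exact permutation within strains, p = 0.17). This value leaned on WT replicate 3 at 20°C, with 0 and 1 counts, without which it was 0.10 (exact permutation p = 0.36), and it was 0.48 without WT replicate 2 at 20°C (exact permutation p = 0.02). Log2 CPM of the pair correlated with r = 0.999 over the 12 libraries, 0.994 within the 6 at 20°C and 0.990 within the 6 at 35°C. For hsp-70 with F44E5.4 the values were 0.990, 0.940 and 0.856, and with F44E5.5 0.995, 0.964 and 0.880. These coefficients describe libraries that share depth and treatment, and carry no test.

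Other members of the HSP70 superfamily moved far less on HS. Of 9 further genes, 2 were called up and 1 down in the mutant, against 4 up and 0 down in WT, beside 4.43% and 3.31% of all genes in the mutant and 6.11% and 5.42% in WT. With DESeq2 the WT count was 3, as hsp-6 was then under the limit of 1. In both strains hsp-110, the HSP110-type exchange factor for HSP70, rose, by log2 2.69 (SE 0.229) in miR-85(n4117) and 2.85 (SE 0.230) in WT. One of the BiP chaperones of the endoplasmic reticulum, hsp-4, rose by 2.26 (SE 0.216) in the mutant and 2.16 (SE 0.215) in WT. The other BiP gene, hsp-3, was not called in either strain, with -0.34 in both. For the constitutive hsp-1 the change was 0.83 in the mutant, under the limit of 1, and 1.05 in WT, where it was called, and for the mitochondrial hsp-6 it was 0.99 and 1.01. T14G8.3 was called lower in the mutant only by the limit of 1, at -1.06 against -0.99 in WT. With the 3 inducible genes included, the median of the 12 was 1.06 in miR-85(n4117) and 1.03 in WT, beside 0.02 and 0.01 over all genes tested. Without them, 5 of the 9 changes were positive in each strain.

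Partners of HSP70 in the chaperone cycle rose in part. Of 13 cochaperones and HSP90 partners 4 were called higher in each strain and none lower, beside 4.43% of all genes up and 3.31% down in the mutant and 6.11% and 5.42% in WT. They were dnj-13, a J-domain protein, with log2 2.10 (SE 0.227) in miR-85(n4117) and 2.78 (SE 0.234) in WT, the exchange factors bag-1 (1.38 and 1.6) and unc-23 (2.79 and 3.33), and hsp-90, also known as daf-21, the cytosolic HSP90 (1.70 and 1.85). The other 9, among them hip-1, sti-1 and the ubiquitin ligase gene chn-1, were not called, with changes between -0.01 (daf-41) and 0.75 (hip-1) in miR-85(n4117) and between 0.06 (daf-41) and 0.88 (ahsa-1) in WT. The median of the 13 was 0.69 in miR-85(n4117) and 0.77 in WT. In the interaction of strain and HS 0 of 13 were called by edgeR or DESeq2, and 1 of 13, dnj-13, was under 0.05 before adjustment by edgeR, where 2.15% of all genes were.

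**Figure D5:**
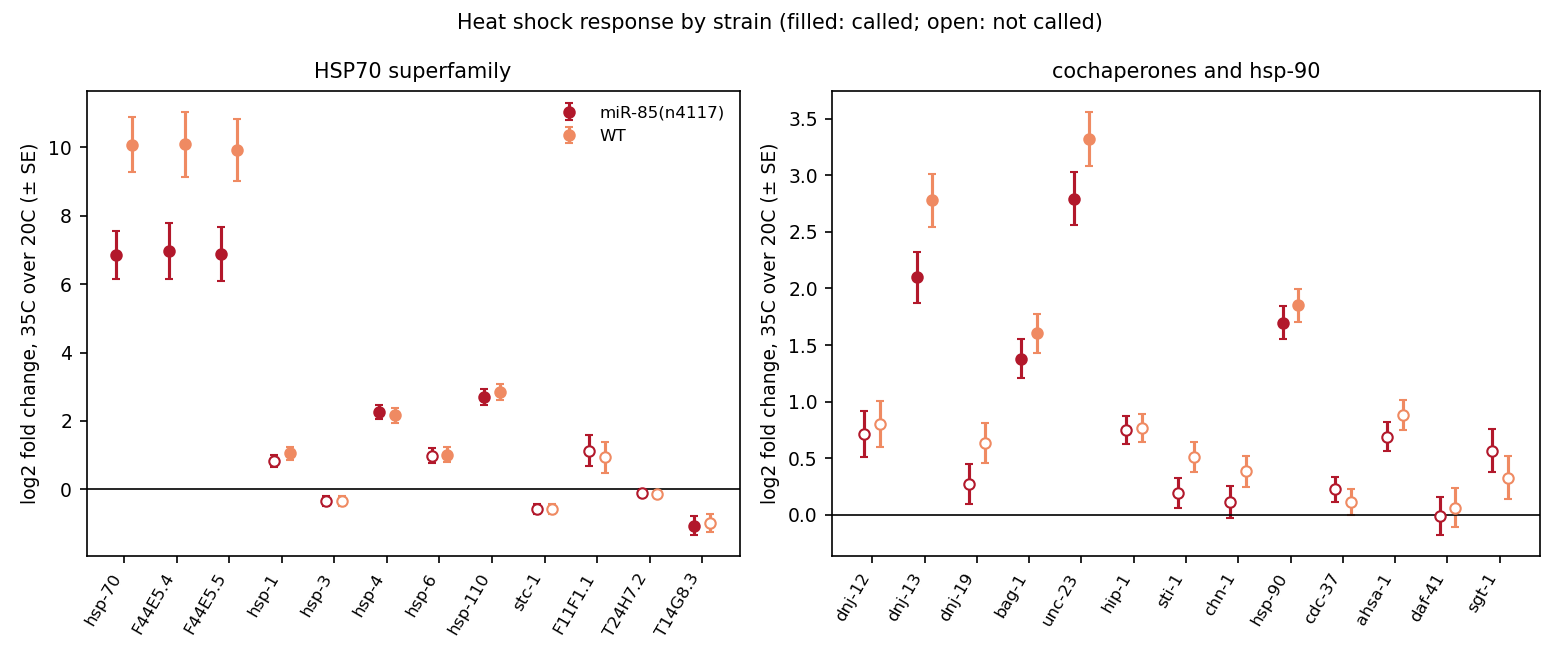
Log2 fold change, 35°C over 20°C, with SE, of 12 HSP70 superfamily genes (left) and 13 cochaperone and HSP90 genes (right), the miR-85(n4117) point left of the WT point for each gene and filled where called. The 3 inducible genes lie between 6.85 and 10.09, and no other gene lies above the 3.33 of unc-23 in WT.

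At 20°C none of the 9 other superfamily genes and none of the 13 partners was called different between the strains by edgeR or DESeq2. The largest estimates were for unc-23, 0.70 higher in miR-85(n4117) (SE 0.211), and dnj-13, 0.65 higher (SE 0.253), with edgeR adjusted p = 0.387 and 0.484. These 2 of 22 genes were under 0.05 before adjustment, where 9.50% of all genes were, a share near that background. Of the small chaperone genes, hsp-16.2 and its relative hsp-16.41, which encode small heat shock proteins and are also HSF-1 targets, were estimated 3.97 (SE 0.966) and 3.78 (SE 0.911) higher in miR-85(n4117) at 20°C. Like the 3 HSP70 genes they were not called by edgeR (adjusted p = 0.307 for each), and DESeq2 called both (adjusted p = 0.0145 and 0.0113). On HS they rose by 7.41 and 7.49 in the mutant and by 11.44 and 11.47 in WT.

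Among the regulators, hsf-1 itself differed little. Its log2 change on HS was 0.38 (SE 0.133) in miR-85(n4117) and 0.34 (SE 0.134) in WT and its strain difference at 20°C was -0.01 (SE 0.125), none of them called. hsb-1, whose product binds and restrains HSF-1, and its partners ddl-1 and ddl-2 were not called in any of the comparisons by edgeR. Of the microRNA Argonaute genes, alg-2 was called lower on HS in both strains (-1.21 in miR-85(n4117), -1.31 in WT) and alg-1 in WT (-1.64, against -0.73 in miR-85(n4117), with an interaction of 0.92 and unadjusted p = 0.0528 by edgeR). At 20°C alg-1 was -1.0 on the log2 scale in miR-85(n4117) relative to WT (SE 0.198), not called by edgeR (adjusted p = 0.258) and called by DESeq2 (adjusted p = 0.00337).

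The genes around the HSP70 loci were read for the same libraries. The host gene uggt-2, which encodes an enzyme of glycoprotein quality control and is transcribed across hsp-70 from the other strand, had 36.0, 28.5 and 32.6 CPM in miR-85(n4117) and 40.8, 20.5 and 27.8 CPM in WT at 35°C. At 20°C it had 18.4, 19.1 and 18.8 CPM in the mutant and 20.6, 17.5 and 12.1 CPM in WT, and its log2 changes of 0.79 and 0.82 were under the limit of 1. A tRNA gene on the strand of hsp-70, C12C8.t6, lies 288 bases past the end of hsp-70. It had 35, 30 and 43 counts in miR-85(n4117) and 44, 7 and 29 counts in WT at 35°C, and 0 counts in all 6 libraries at 20°C. Against a floor of 3 counts per library it was at least 17.5-fold higher in the mutant and at least 7.16-fold higher in WT, and called by edgeR (adjusted p = 0.00343 and 0.00627). Its counts were 0.00683 to 0.0314% of those of hsp-70.

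Beside the divergent pair, the pseudogene F44E5.3, on the opposite strand 304 bases past F44E5.5, had 14, 18 and 9 counts in miR-85(n4117) and 15, 17 and 15 in WT at 35°C. At 20°C it had 7, 3 and 3 counts in the mutant and 3, 2 and 1 in WT, and its mean count was under the limit for a call. F44E5.2, 4910 bases past F44E5.5, had 25, 25 and 18 counts in miR-85(n4117) and 25, 13 and 22 in WT at 35°C, against 5, 0 and 0 in miR-85(n4117) and 4, 1 and 0 in WT at 20°C, and was called higher in both strains by edgeR (adjusted p = 0.00448 in the mutant and 0.0119 in WT). The noncoding gene F44E5.16, 187 bases past the end of F44E5.4, was not called, with log2 -0.57 in the mutant and -0.48 in WT. The remaining 4 neighbours had at most 2 counts in any library and were not tested.

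The protein-coding genes whose log2 CPM was most like the mean of the 3 genes over the 12 libraries were hsp-16.2 (r = 0.995), dnj-13 (0.994), hsp-16.41 (0.993), F19B2.5 (0.992) and ZK1290.5 (0.990). Over the 6 libraries at 20°C they were R10E11.6 (0.996), F14D2.14 (0.993), the glucuronosyltransferase gene ugt-14 (0.993), R186.3 (0.992) and K02F2.5 (0.992). The 2 lists had 0 genes in common. Over the 12 libraries R186.3 and K02F2.5 had r = -0.07 and -0.82, so that likeness at 20°C did not extend to the heat-shocked libraries for these 2. With 6 libraries from 2 strains and 2 lanes, high values of r can arise readily. How many genes reach such values was not counted, and no test goes with them.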

How the data were processed

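The authors isolated total RNA with TRIzol, removed ribosomal RNA, made stranded TruSeq libraries and sequenced single reads, from 3 independent biological replicates per group. Reads were aligned with STAR to ce11 (WBcel235) and counted on genes with featureCounts 1.6.5, strand setting 2, Ensembl release 100 by the file headers. The deposited files hold these counts, whole numbers without normalization, 1 file per library.

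Genes were named and placed with Ensembl release 115, which held 46817 of 46904 identifiers. Counts were tested in R 4.3.3 with edgeR 4.0.16 (filterByExpr, TMM, robust quasi-likelihood, Benjamini-Hochberg over all genes tested), and steps were tested on simulated data. The strain comparisons used the 6 libraries of a temperature, and the heat shock responses all 12. Percentages of genes called are over those genes that encode proteins and averaged over 10 normalized counts. Shares and ratios were compared by exact permutation in Python 3.11.15, scipy 1.17.1. Alternatives were DESeq2 1.42.0, its size factors, other count filters, removal of ribosomal RNA genes, lane, replicate block, summing the 3 genes and leaving out single libraries. The p-values set differences against the spread between these libraries.

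Whether replicate numbers pair libraries was checked from the deviations of 15287 genes from group means. Same-numbered libraries correlated by 0.356 to 0.592 between the strains at 35°C and by 0.141 to 0.391 between temperatures in WT, and with no common sign between the strains at 20°C (-0.246 to 0.0953) or between temperatures in the mutant (-0.373 to 0.429). In the first 2 comparisons same-numbered libraries were thus more alike than others (mean r 0.487 against -0.225, and 0.281 against -0.147). With 3 libraries per group this does not establish that the numbers mark pairs. In WT the number also goes with lane, with replicate 1 in lane 3 and replicates 2 and 3 in lane 8. The part of lane in the correlations between temperatures in WT was not tested. The headers also letter the libraries, B, D and E for WT and A, B and C for the mutant in the order of the numbers at both temperatures, so that the strains share 1 letter under different numbers. Whether letters mark a shared batch is not given in the sources used here.

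Named beside the 3 genes are genes of the fixed lists that were called or on which a sentence turns, the 2 nearest genes on each side of each locus, and the 5 protein-coding genes most like the 3 by Pearson r of log2 CPM (prior count 2). The 3 genes, the lists and the rule were chosen with earlier results of these data known. Promoter sequences were not used here.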

Additional observations from a re-analysis of the deposited data

How the results depend on the processing

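Of 491 values recomputed under other settings, 468 stayed the same, among them every heat shock response of the 3 genes and every interaction under the settings that gave a value. For a change or difference this means the same direction and side of the threshold. For a number of genes called from a list it means an equal or close number, and many of these numbers were 0 throughout. The share of protein-coding counts was tested on 3 against 3 libraries, where an exact permutation p cannot fall below 0.1. That result could therefore change only in direction. The cause of the changes below was not tested. DESeq2 called hsp-70 (3.13) and the sum of the 3 genes (3.19) higher in miR-85(n4117) at 20°C. In the HSP70 superfamily list hsp-70 itself was the 1 gene it called higher at 20°C, and in the hsp-16 list it called hsp-16.2 and hsp-16.41. With edgeR both numbers were 0. Of 7 tested genes of the regulator list, DESeq2 called F49E12.8 and alg-1 lower at 20°C, beside 0.528% of all genes. At 35°C it called F49E12.8 alone lower, beside 0.0546% of all genes. edgeR called F49E12.8 lower at 20°C and 0 genes of this list at 35°C. By the study's account the mir-85 deletion disrupts part of F49E12.8, so its calls are no result about the regulators. DESeq2 called 59 genes higher and 76 lower at 20°C, against 2 and 6. At 35°C F44E5.4 and F44E5.5 turned to -0.036 and -0.035 with the lane as a covariate. The 3 genes summed to 1 feature, most of whose counts are from hsp-70, gave -0.052 there, which is no estimate for either gene.

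Leaving out 1 library at a time, the strain difference at 20°C ranged over 2.80 to 3.73 for hsp-70, 2.88 to 4.01 for F44E5.4, 2.76 to 4.15 for F44E5.5 and 2.82 to 3.86 for the sum, with adjusted p between 0.0873 and 0.870. At 35°C it ranged over -0.25 to -0.00156 for hsp-70, -0.11 to 0.37 for F44E5.4, -0.16 to 0.31 for F44E5.5 and -0.21 to 0.076 for the sum. The share of hsp-70 ranged over -4.58 to 1.17 points for 35°C minus 20°C and -7.41 to -1.66 for miR-85(n4117) minus WT. The strain difference in share passed 0.05 without WT replicate 1 at 20°C (exact permutation p = 0.035) and without miR-85(n4117) replicate 2 at 35°C (exact permutation p = 0.03). The log2 ratio of F44E5.4 to F44E5.5 ranged over 0.10 to 0.48 (highest, with exact permutation p = 0.02, without WT replicate 2 at 20°C). The share of protein-coding counts at 35°C, miR-85(n4117) minus WT, ranged over -0.0954 to 0.0818 points.

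With the replicate number as a block hsp-70 was 2.99 higher at 20°C in miR-85(n4117) (edgeR adjusted p = 0.536), -0.11 at 35°C, and 7.13 and 10.22 higher on heat shock in the mutant and WT. The block changed no call of the 3 genes and, at 20°C, left 0 genes called higher and 2 lower. A minimum of 10 counts in every library left no value for F44E5.4 and F44E5.5 at 20°C or across temperatures. The search for heat shock elements was not run. Depth limits the WT levels of the 3 genes at 20°C, where replicate 3 had 32 counts in all.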
